A study of Mus musculus with 12 samples.

Results

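The genes of ATP-binding cassette (ABC) transporters were examined in hematopoietic stem cells (HSCs) of wild-type (WT) mice and of mice deficient in the antioxidant enzyme paraoxonase-2. The members are all genes whose symbol is Abc followed by a letter from a to g and a digit, without pseudogenes, which gave 50 genes of the 49585 counted. The cells were sorted from bone marrow as Lin-, Sca1+, ckit+, CD135- and CD150+. By the study's account this gate takes in MPP2 cells beside LT-HSCs, while the sample labels call all of them LT-HSCs. Both groups were young mice of 10-14 weeks, 6 WT C57BL/6J and 6 Pon2-/-, and the labels give C57BL/6J as the background of the samples. The Pon2-/- mice carry a β-geo gene trap flanked by loxP sites in intron 2 of *Pon2*. By the study's account this strongly reduces Pon2 protein but leaves a small remainder. The trap is in every cell, so that effects of other cells of the mouse on HSCs are not separated from those of the HSCs themselves. Each sample is 1 mouse, from which 8 wells of 10 cells were sorted for Smart-seq2, a protocol that amplifies full-length cDNA from few cells.

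ABC proteins bind and hydrolyse ATP, and most of them use it to move substrates across a membrane. Full transporters form the whole channel from 1 protein, while others such as ABCG2 work as pairs. ABCG2 and P-glycoprotein, the product of *Abcb1a* and *Abcb1b* in mice, export dyes and drugs, and ABCG2 gives HSCs the low staining with the dye Hoechst by which a side population is sorted. Members of subfamily C export conjugates of glutathione and other organic anions, subfamily A members move lipids, and subfamilies E and F hold soluble proteins that act in translation rather than transport. NRF2, the product of *Nfe2l2*, is a redox sensor that is known to activate several of the efflux pumps, *Abcc2* among them.

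The samples held between 12967791 and 24228280 counts on genes. Levels are given as CPM, the counts of a gene scaled to 1000000 counts of the tested genes with TMM normalization. *Pon2* itself, the check of the labels, averaged 112.7 ± 49.3 CPM among WT mice and 25.7 ± 12.2 CPM among Pon2-/- mice (mean ± SD, n = 6 each) without overlap of the groups. All 10 HSC marker genes were counted in both groups, with summed levels between 2080 and 2833 CPM. Granulocyte markers summed to 1.35-9017 CPM in WT and 68.6-13622 CPM in Pon2-/- samples, macrophage markers to 615-1716 and 463-2463 CPM, and B lineage markers to 25.5-319 and 58.8-478 CPM, so the samples differed in the RNA of mature cells within both groups. The hepatocyte markers *Alb*, *Ttr*, *Serpina1a* and *Apoc3* were at 0 in all samples. *Apoa1*, also a hepatocyte marker, was counted in 5 WT samples (up to 6.28 CPM) and 2 Pon2-/- samples (up to 1.30 CPM).

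Of the 50 ABC genes, 18 were counted in all 12 samples (36%), 22 in some of them (44%) and 10 in none (20%). Among all protein-coding genes the shares were 36.4%, 35.9% and 27.7%. The genes without a count were *Abca9*, *Abca16*, *Abcb5*, *Abcb11*, *Abcc6*, *Abcc8*, *Abcc12*, *Abcg4*, *Abcg5* and *Abcg8*. Several of these are known for their work in other tissues, such as the bile salt export pump *Abcb11*, the sterol transporters *Abcg5* and *Abcg8* and the sulfonylurea receptor *Abcc8*. A gene without a count may still lie below 3 counts, which corresponded to 0.121-0.235 CPM depending on the sample. This floor covers counting error only, as PCR reads were counted without molecular identifiers.

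**Figure D1:**
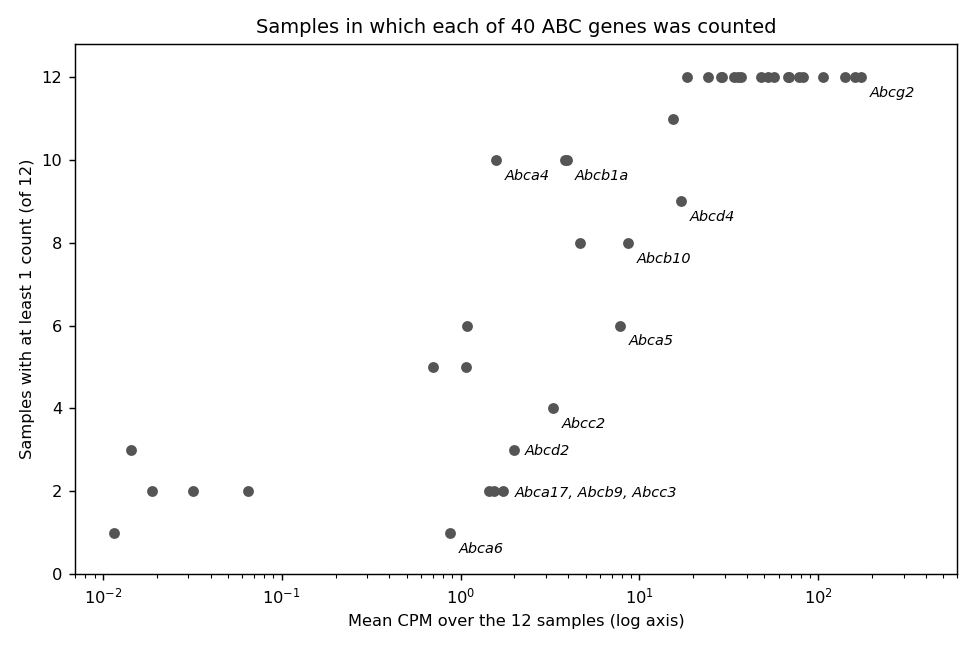
Number of samples (y axis, of 12) in which each of the 40 ABC genes with any count was counted, against its mean CPM over the 12 samples (x axis, log scale); each point is 1 gene. The 18 genes counted in every sample lie at the upper right, whereas *Abcc2* was counted in 4 samples, *Abcd2* in 3, *Abca17*, *Abcb9* and *Abcc3* in 2 and *Abca6* in 1, at means similar to that of *Abca4*, which was counted in 10.

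Counts of the less abundant members were concentrated in few samples. Of the 36 ABC genes with at least 10 counts in all, 11 were counted in 6 or fewer samples (30.6%, against 21.6% of the protein-coding genes with at least 10 counts). *Abca6* had all its 133 counts in WT replicate 4. *Abcb9*, a lysosomal peptide transporter, had 324 of its 325 counts in Pon2-/- replicate 3. *Abcc3*, an organic anion pump, was counted in 1 mouse of each genotype, with 253 counts in WT replicate 3 and 226 in Pon2-/- replicate 5. For such genes a sample mostly held either many counts or none, so that a mean per genotype rests on 1 or 2 mice. In these pools of 80 sorted cells, fewer cells expressing a gene and less RNA per cell cannot be told apart.

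The levels of different genes were compared as CPM per kb of annotated exon. By this measure the soluble members led the family. *Abcf2* had a mean of 41.5 CPM per kb over the 12 samples, followed by *Abcf1* (31.9), which takes part in the start of translation, *Abce1* (26.6), which recycles ribosomes, and *Abcf3* (21.9). The transporters with the highest levels were *Abcg2* (21.3 CPM per kb), its rodent paralog *Abcg3* (14.8), the cholesterol exporter *Abcg1* (11.3), the exporter of cyclic nucleotides and prostaglandins *Abcc4* (10.6), and the endolysosomal lipid transporter *Abca2* (8.25). None of the 20 pairs of neighbours among the 21 highest genes differed after adjustment (exact permutation test over sign flips of the 12 samples, two-sided). The smallest raw p, 0.0215 for *Abcg2* over *Abcg3*, became 0.430 over the 20 pairs. The order also depends on the length: per kb of the longest transcript *Abcf1* came first (44.5), then *Abce1* (42.1), *Abcf2* (41.5) and *Abcg2* (30.4). The pumps of the multidrug and conjugate type were lower, at 3.74 CPM per kb for *Abcc1*, 3.04 for *Abcb1b*, 0.704 for *Abcb1a*, 0.420 for *Abcb4*, 0.384 for *Abcc2* and 0.302 for *Abcc3*, which put *Abcc2* at rank 26 of the family.

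**Figure D2:**
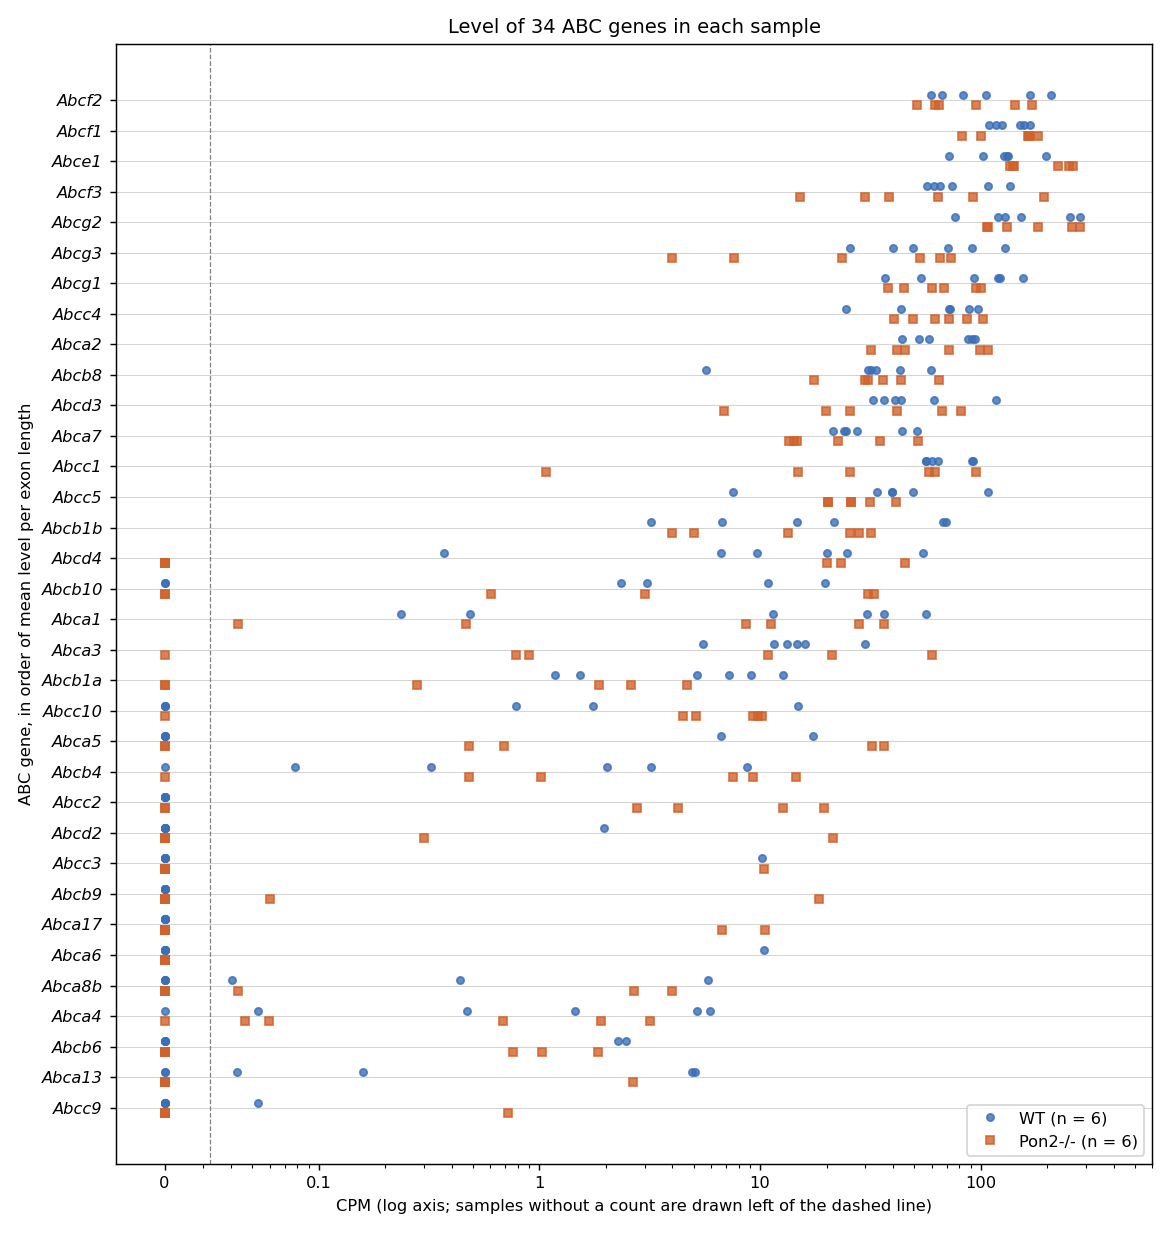
CPM (x axis, log scale) of 34 ABC genes with at least 10 counts in every WT sample (circles) and Pon2-/- sample (squares), ordered from the top by mean CPM per kb of exon; samples without a count are drawn at the left edge. The 15 genes at the top were counted in all samples, and the spread within each genotype widened towards the bottom.

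Summed over all members, the ABC genes took 1337 ± 122 CPM in WT mice against 1299 ± 168 CPM in Pon2-/- mice (mean ± SD, n = 6 each). WT samples lay between 1156 and 1469 CPM and Pon2-/- samples between 1008 and 1480 CPM, so the groups overlapped throughout. The difference of -37.7 CPM was smaller than the spread between mice (p = 0.680, two-sided exact permutation test). The number of members counted per sample was 26.8 ± 2.48 in WT and 27.8 ± 2.32 in Pon2-/- HSCs (p = 0.558, exact permutation test).

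The comparison of the genotypes asks which ABC genes Pon2-/- HSCs express differently. Of the 25 members that passed the filter on low counts, 0 were called by edgeR's quasi-likelihood test at an adjusted p below 0.05 and a fold change above 2 (log2 above 1). Of all 11848 genes tested, 24 were called (0.203%), a share at which no call among 25 genes is no result about the family. At an unadjusted p below 0.05 edgeR found 1 member, *Abce1*, higher in Pon2-/- samples, against 3.13% of all genes tested in either direction and 1.7% in this direction. The exact permutation test of log2 CPM, which needs no filter, gave p below 0.05 for 3 of the 36 members with at least 10 counts, *Abce1* and *Abcb1a* among them, against 4.23% of all genes with at least 10 counts. For no member did all samples of one genotype lie above all of the other, which held for 0.471% of these genes and for 0.633% of those edgeR tested. The median log2 fold change of the 25 members was -0.21, with 11 above 0 and 14 below, beside -0.0092 for all genes tested. Limma voom called 0 members. DESeq2, the tool the study used, called 2 members, *Abcc2* and *Abca17*, against 1.79% of all genes it tested, and both of them had no count in WT.

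**Figure D3:**
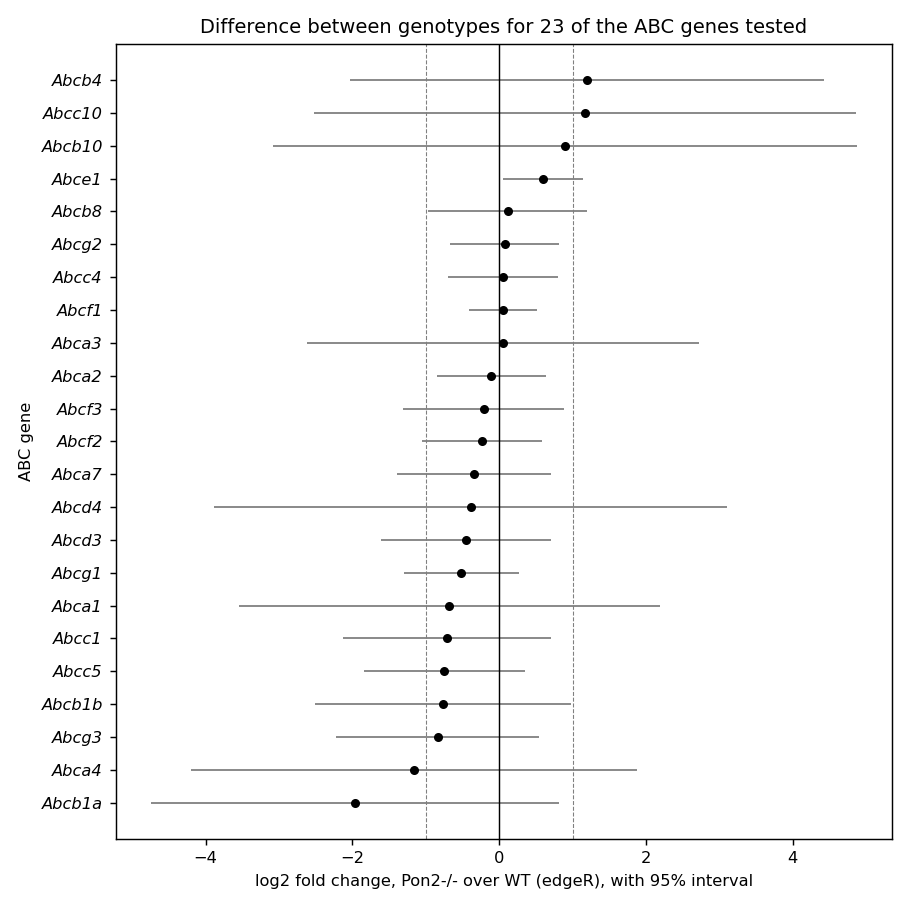
Log2 fold change of Pon2-/- over WT (x axis) for 23 of the ABC genes tested, estimated with edgeR; points are estimates, bars 95% intervals, and dashed lines mark the threshold of 1 on the log2 scale. Of these 23 intervals, only that of *Abce1* (0.05 to 1.15) lay on 1 side of 0, and the intervals of sparsely counted genes spanned several log2 units.

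Among the 4 soluble members, *Abce1* (ENSMUSG00000058355.8, chromosome 8 from 79683462 to 79711740, GRCm38, minus strand) was the one with an unadjusted p below 0.05. WT samples ranged from 71.6 to 198 CPM with a median of 129, and Pon2-/- samples from 136 to 262 CPM with a median of 183. Every Pon2-/- sample was above 5 of the 6 WT samples, and WT replicate 5 lay within the Pon2-/- range. The means were 127.2 ± 41.9 and 192.4 ± 59.7 CPM (n = 6 each), and the log2 fold change was 0.60 (SE 0.26, 95% interval 0.05 to 1.15). edgeR gave p = 0.0355 and an adjusted p of 0.9999 over all genes, and the exact permutation test p = 0.0411, so the difference did not pass the correction. A processed copy elsewhere in the genome, *Gm6640*, is 93.6% identical over 41.9% of the *Abce1* transcript. How reads that match both were counted was not examined, and some may be missing from *Abce1*. The other 3 soluble members differed by less than the spread. *Abcf1* ran from 109 to 168 CPM in WT and from 82.5 to 181 CPM in Pon2-/- samples, with a log2 fold change of 0.05 (SE 0.21), the most precise estimate in the family. *Abcf2* had a log2 fold change of -0.24 (SE 0.38) and *Abcf3* of -0.21 (SE 0.51). *Abcf1* and *Abcf2* also have copies that are 91.7% and 93.3% identical over most of their transcripts (*Gm8844* and *Gm8345*).

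*Abcg2* (ENSMUSG00000029802.13, chromosome 6 from 58584523 to 58695676, plus strand) had the highest mean level per length among the transporter genes. WT samples ranged from 76.1 to 283 CPM with a median of 141, and Pon2-/- samples from 106 to 282 CPM with a median of 157. The groups overlapped over nearly their whole range, and mice of 1 genotype differed more from each other than the genotypes did. The means were 169.3 ± 81.4 and 178.3 ± 76.9 CPM (n = 6 each). Its log2 fold change was 0.07 with an interval from -0.67 to 0.82 (SE 0.34, unadjusted p = 0.832 by edgeR, adjusted p = 0.9999). The gene took 6.58-21.3% of all ABC counts in WT and 8.81-19.7% in Pon2-/- samples. Its paralog *Abcg3*, on chromosome 5, had a median of 60.0 CPM in WT (25.5 to 128) and of 38.2 CPM in Pon2-/- samples (4.0 to 73.5), with a log2 fold change of -0.84 (SE 0.64). *Abcg1*, which loads cholesterol onto lipoproteins, had 96.95 ± 45.1 and 67.9 ± 25.8 CPM and a log2 fold change of -0.51 (SE 0.36). Neither passed the test (adjusted p = 0.9999 by edgeR for both). Of the 6 genes of subfamily G, 3 were tested, 1 with a fold change above 0 and 2 below, and the other 3 had no count.

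*Abcb1a*, *Abcb1b* and *Abcb4* lie next to each other on chromosome 5 (8660077-8748575, 8798147-8866315 and 8893717-8959231, plus strand). The first 2 encode P-glycoprotein, and the third flips phosphatidylcholine into bile. *Abcb1a* (ENSMUSG00000040584.8) was counted in all 6 WT samples, from 1.17 to 12.6 CPM with a median of 6.23. In Pon2-/- samples it had 0 counts in replicates 1 and 3 and reached 4.66 CPM in replicate 2, with a median of 1.07. The 4 highest values were all WT, yet WT replicates 2 and 4 lay below 3 of the Pon2-/- samples. The means were 6.15 ± 4.45 and 1.57 ± 1.86 CPM (n = 6 each). The log2 fold change of *Abcb1a* was -1.97 with an interval from -4.75 to 0.81 (SE 1.29, unadjusted p = 0.151 and adjusted p = 0.9999 by edgeR). The exact permutation test of log2 CPM gave p = 0.0433 before and 1.0 after adjustment over all genes with at least 10 counts, and leaving out single mice moved the raw p between 0.0216 and 0.0887. *Abcb1b* was higher per length than *Abcb1a* over all samples (3.04 against 0.704 CPM per kb) and varied from 3.21 to 69.9 CPM in WT and from 4.0 to 31.7 CPM in Pon2-/- samples, with a log2 fold change of -0.77 (SE 0.81). *Abcb4* was counted in 5 mice of each genotype, up to 8.76 CPM in WT and 14.6 CPM in Pon2-/- samples, with a log2 fold change of 1.19 (SE 1.5). Transcripts of *Abcb1a* and *Abcb1b* are 88.0% identical over 3918 bases, and 10.1% of the *Abcb1a* exon bases overlap a gene on the opposite strand, which counts without strand cannot separate.

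The members of subfamily B that work in mitochondria and lysosomes were described as a group of 5, of which 3 were tested. None of the 3 was called. *Abcb8*, a mitochondrial member, had medians of 32.6 and 33.4 CPM and a log2 fold change of 0.12 (SE 0.50). *Abcb10*, which serves heme synthesis in red cell precursors, was counted in 4 mice of each genotype, at up to 19.7 CPM in WT and 32.8 CPM in Pon2-/- samples (log2 fold change 0.90, SE 1.85). Its direction turned under limma voom, to -0.27. *Abcb6* shared 55.2% of its exon bases with *Gm29253* on the same strand, so that its 140 counts are uncertain.

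Subfamily C holds 8 organic anion pumps, of which 4 were tested, 2 with a fold change above 0 and 2 below. *Abcc1* exports glutathione conjugates and leukotriene C4. It ranged from 56.3 to 92.3 CPM in WT with a median of 62.2, and from 1.08 to 94.8 CPM in Pon2-/- samples with a median of 42.0. Pon2-/- replicates 1, 2 and 3 lay below all WT samples, and replicate 6 was the highest of all 12. The log2 fold change was -0.71 (SE 0.66, 95% interval -2.13 to 0.71, unadjusted p = 0.299 and adjusted p = 0.9999 by edgeR). *Abcc4* was counted at 24.6-97.3 CPM in WT and 40.5-103 CPM in Pon2-/- samples, with means of 66.35 ± 27.5 and 68.9 ± 23.3 CPM and a log2 fold change of 0.05 (SE 0.35). *Abcc5*, an exporter of cyclic nucleotides, had medians of 39.5 and 25.8 CPM (log2 fold change -0.75, SE 0.51). *Abcc10* had 0 counts in 3 WT samples and 14.8 CPM in WT replicate 2, and was counted in 5 of 6 Pon2-/- samples at 4.49-10.2 CPM (log2 fold change 1.17, SE 1.72). This estimate was 3.67 without WT replicate 2, 3.74 under limma voom and 5.2 with a replicate block, and it was not called under any of them.

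*Abcc2* (ENSMUSG00000025194.5, chromosome 19 from 43782192 to 43840740, plus strand) encodes the pump that secretes conjugated bilirubin and glutathione conjugates, known from the apical membrane of hepatocytes. The gene had no count in any of the 6 WT samples. Among Pon2-/- samples it had 327 counts in replicate 1, 183 in replicate 4, 60 in replicate 5 and 71 in replicate 6, and none in replicates 2 and 3. These counts corresponded to 19.5, 12.7, 2.78 and 4.27 CPM. With 3 counts over all 6 WT samples together as the floor, the pooled Pon2-/- level was 213.6-fold that floor. Without replicate 1, which held 51.0% of all counts, it was 123.4-fold. These ratios leave out the spread between mice and are no lower bound on the difference between genotypes. The difference of log2 CPM was 4.07 (p = 0.0606, two-sided exact permutation test; the smallest p that the relabellings allow is 0.00216). The test did not pass its threshold, with 2 of the 6 Pon2-/- samples at 0 like all WT samples. Leaving out single mice moved p between 0.0152 and 0.0606, and the exact paired p was 0.125. The lowest value came without replicate 2 or 3, the samples at 0, so their removal is no support for a difference. DESeq2 gave an adjusted p of 0.00584. The study picked *Abcc2* from these same samples, so its direction here is not independent evidence.

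Where it was counted, *Abcc2* was compared with the other pumps per length, and it lay below *Abcg2* in each of the 4 samples. In Pon2-/- replicate 1 it stood at 2.29 CPM per kb against 13.03 for *Abcg2*, or 17.6% of it. In replicates 4, 5 and 6 the share was 9.20%, 2.45% and 2.24%. *Abcb1a* lay at 0 in replicate 1, at 0.0506 CPM per kb in replicate 4, at 0.473 in replicate 5 and at 0.340 in replicate 6. *Abcc2* was thus the higher of these 2 genes in 3 of the 4 samples and the lower in replicate 5 (0.325 CPM per kb). These 4 samples were chosen by their *Abcc2* counts. *Abcb1a* was the higher in all 6 WT samples and in Pon2-/- replicate 2 (0.850 CPM per kb), and both were at 0 in replicate 3. Against *Abcc1*, *Abcc2* was the higher in replicate 1 (0.0713 CPM per kb of *Abcc1*) and the lower in replicates 4, 5 and 6 (3.88, 4.10 and 6.28 CPM per kb). *Abcc2* took 1.94% of all ABC counts in replicate 1 and 0.226-0.962% in the other 3 samples.

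Other values were set beside the *Abcc2* counts. The hepatocyte markers *Alb*, *Ttr*, *Serpina1a* and *Apoc3* were at 0 in all 12 samples. *Apoa1*, the remaining one, was at 0 in Pon2-/- replicates 1, 4 and 6 and at 1.30 CPM in replicate 5. It reached 6.28 CPM among WT samples, which had no *Abcc2* count. The 6 B lineage markers summed to 205, 478, 445 and 58.8 CPM in Pon2-/- replicates 1, 4, 5 and 6, where the last had counts of *Cd79b* alone. WT replicate 2, without *Abcc2*, reached 319 CPM. Granulocyte and macrophage markers were highest in Pon2-/- replicate 1 (13622 and 2463 CPM), the sample with most *Abcc2*, but lay at 68.6 and 571 CPM in replicate 5. The part of these cell types in the *Abcc2* counts was not tested.

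**Figure D4:**
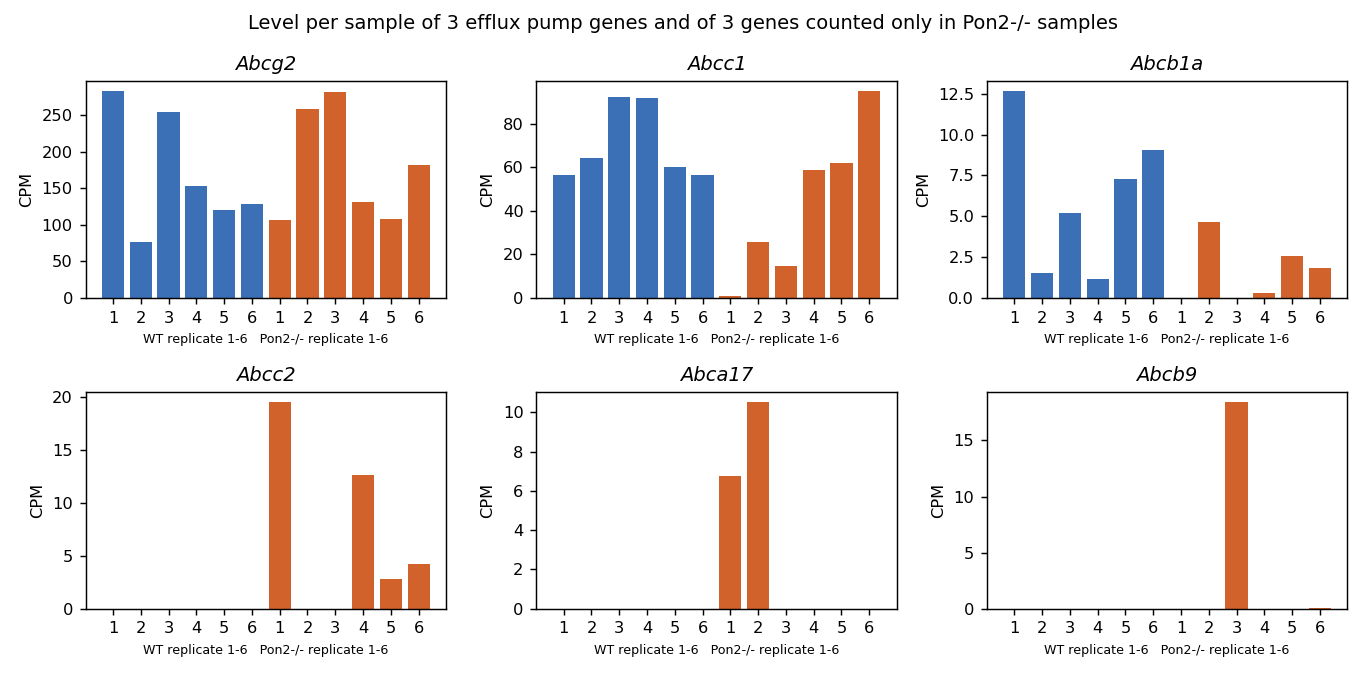
CPM (y axis of each panel, starting at 0) of *Abcg2*, *Abcc1* and *Abcb1a* (upper panels) and of *Abcc2*, *Abca17* and *Abcb9* (lower panels) in WT replicates 1-6 (blue bars) and Pon2-/- replicates 1-6 (orange bars). *Abcg2* stood in every sample at 76.1-283 CPM, whereas the 3 genes of the lower panels were at 0 in all WT samples and came from 4, 2 and 2 Pon2-/- samples.

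Counts in one genotype alone were also found for genes outside the family. Of the 36 members with at least 10 counts, 4 had no count in the other genotype, against 13.6% of all 19941 genes with at least 10 counts. This background holds genes of every type and was not matched to the members by level or by number of samples counted. It therefore does not say how often a gene with the counts of *Abcc2* would show this. Counts in Pon2-/- samples alone were found for *Abcc2*, *Abca17* and *Abcb9* (6.17% of all these genes), and in WT alone for *Abca6* (7.45%). *Abca17* had 113 counts in Pon2-/- replicate 1 and 244 in replicate 2, 119-fold over the pooled WT floor and 47.7-fold without replicate 2 (p = 0.455, exact permutation test). DESeq2 nevertheless gave it an adjusted p of 1.18e-11. The study lists *Abca17* from these samples too. *Abcb9* was 108.3-fold over the pooled WT floor through Pon2-/- replicate 3, and 1 count remained without that mouse. *Abca6* in WT was 44.4-fold over the pooled Pon2-/- floor through 1 mouse, and no count remained without it. DESeq2 called *Abcb9* and *Abca6* only when its removal of outlying counts was switched off, which raised its calls to 4 members and to 4.2% of all genes. None of the 4 genes was counted in more than 4 of 12 mice.

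The lipid transporters of subfamily A numbered 16, with 5 tested, 1 fold change above 0, 4 below and none called. *Abca2* was the highest, with 71.4 ± 22.2 CPM in WT and 66.3 ± 31.8 CPM in Pon2-/- samples (n = 6 each) and a log2 fold change of -0.11 (SE 0.34). *Abca7*, a phospholipid transporter, had 32.2 ± 12.5 and 25.3 ± 15.3 CPM (log2 fold change -0.35, SE 0.49). *Abca1*, which exports cholesterol to apolipoprotein A-I, ran from 0.235 to 56.5 CPM in WT and from 0.0431 to 36.4 CPM in Pon2-/- samples, with a log2 fold change of -0.68 (SE 1.33). *Abca3*, known for the lamellar bodies of surfactant cells, was counted at 5.52-29.8 CPM in all WT samples. In Pon2-/- samples it spread from 0 counts in replicate 2 to 60.1 CPM in replicate 4. *Abca3* and *Abca17* start side by side on chromosome 17 and run in opposite directions (from 24351950 on the plus and 24351068 on the minus strand). The 2 mice with *Abca17* counts, Pon2-/- replicates 1 and 2, had 0.896 and 0 CPM of *Abca3*, and replicate 6, without *Abca17*, was as low at 0.781 CPM. The neighbouring genes *Abca8b*, *Abca8a*, *Abca9*, *Abca6* and *Abca5* on chromosome 11 (109932190-110337716) were all sparse, the highest value being 36.4 CPM of *Abca5* in Pon2-/- replicate 5.

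Of the 4 members of subfamily D, 3 were tested, and none was called. *Abcd3*, which imports branched fatty acids into peroxisomes, had medians of 42.3 and 33.7 CPM (log2 fold change -0.45, SE 0.54). *Abcd4*, which releases cobalamin from lysosomes, was counted in all WT samples at 0.369-54.7 CPM, and had no count in Pon2-/- replicates 1, 2 and 3 beside 20.2-45.5 CPM in replicates 4, 5 and 6. Its log2 fold change was -0.38 (SE 1.63). *Abcd2* had 378 of its 408 counts in Pon2-/- replicate 3.

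*Tap1*, *Tap2* and *Cftr* are ABC genes outside the symbol rule. *Tap1* and *Tap2* together encode the peptide transporter that loads MHC class I. *Tap1* averaged 146.2 ± 73.2 CPM in WT mice against 144.1 ± 43.2 CPM in Pon2-/- mice (log2 fold change -0.02), and *Tap2* 39.8 ± 20.6 and 31.1 ± 26.2 CPM (log2 fold change -0.35). Neither was called. *Cftr*, the chloride channel, had 68 of its 75 counts in WT replicate 4.

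A list of 20 genes that regulate ABC transporters, such as NRF2 with its partners and the nuclear receptors of sterols and bile acids, was examined beside the family. Of these 14 were tested, 0 were called, 6 had a fold change above 0 and 8 below. *Rxrb* had an unadjusted p of 0.0390 in the exact permutation test of log2 CPM and of 0.102 by edgeR. *Nfe2l2* was the one with an unadjusted p below 0.05 by edgeR. Its WT samples lay between 81.2 and 171 CPM and its Pon2-/- samples between 141 and 251 CPM, with means of 120.6 ± 38.6 and 203.3 ± 42.7 CPM (n = 6 each). WT replicates 3 and 4 overlapped with the Pon2-/- range. The log2 fold change of *Nfe2l2* was 0.75 (95% interval 0.27 to 1.23, unadjusted p = 0.00465 by edgeR), which did not pass the correction over all genes (adjusted p = 0.834 by edgeR), and the study picked this gene from the same samples. The 4 mice with *Abcc2* counts had the 4 highest *Nfe2l2* values, 251, 238, 229 and 182 CPM in Pon2-/- replicates 1, 4, 5 and 6, while replicate 3, without *Abcc2*, was close to them at 178 CPM. This order was seen after the values and was given no test. *Keap1*, which holds NRF2 inactive, averaged 69.7 CPM in WT mice against 49.0 CPM in Pon2-/- mice (unadjusted p = 0.132 by edgeR). The sterol receptors *Nr1h2* (81.4 and 91.8 CPM) and *Nr1h3* (4.24 and 5.14 CPM) had overlapping groups. The receptors *Nr1i2* and *Nr1h4*, known to drive *Abcc2* and *Abcb11* in liver, had no count in any sample. *Nr1i3*, another receptor of the list, had 27 counts, all in WT replicate 2.

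Promoters of the members were searched for the core of the antioxidant response element, to which NRF2 binds. RefSeq start sites (GRCm38.p6) were found for 38 of the 50 members, with 45 windows from 250 bases before to 50 after the start. The core TGACNNNGC on either strand was present for 5 of these 38 genes (13.2%), against 14% of all 27025 genes with such windows, so the family held it about as often as other genes. The 5 were *Abcc2*, *Abcb1a*, *Abcc4*, *Abcc10* and *Abca8b*. The 6 matches of the 4 pumps among them are shown with 10 bases to each side, the core in capitals, as the strand that carries it.
Abcc2, chr19:43782200-43782228, plus strand: ctcactgggaTGACATAGCattcatctag
Abcb1a, chr5:8567107-8567135, minus strand: ttgttctgtcTGACTCCGCggacaaagag
Abcc4, start within the gene, chr14:118676936-118676964, minus strand: aataatctcgTGACTCTGCcgtggtggat
Abcc4, first start, chr14:118706226-118706254, plus strand: cggcccgcccTGACCCCGCctctcggggc
Abcc10, start within the gene, chr17:46325737-46325765, minus strand: gtgagctttcTGACATGGCtgctaggaac
Abcc10, first start, chr17:46328208-46328236, minus strand: cgcagcacccTGACCTGGCagcgcgtcct
In *Abcc2* the core began 98 bases before the RefSeq start, and inside the GENCODE gene, which starts further upstream. The RefSeq start of *Abcb1a* in turn lies upstream of the start of the GENCODE gene given above. Of these genes *Abcc2* had counts in Pon2-/- samples alone, *Abcb1a* had a log2 fold change of -1.97, *Abcc4* of 0.05 and *Abcc10* of 1.17, none of them called, and *Abca8b* was below the filter. A match of letters is a description and says nothing of binding.

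The windows differed more by their CpG dinucleotides. For a gene with several starts the window with most CpG was taken. Members that passed the filter on counts had a median of 26 CpG per window of 300 bases (19 genes, range 2 to 45). Those below the filter with some counts had a median of 13.5 (12 genes, 1 to 40). Those without any count had a median of 4 (7 genes, 2 to 21), so the ranges overlapped. With every window counted, the median was 16 for the ABC genes and 7 for all genes. The set of all genes was not split by counts, so whether the order is particular to ABC genes was not tested. The upstream sequences of *Abcc2*, counted in 4 samples, and of *Abce1*, counted in all 12, are shown as a CpG-poor and a CpG-rich example. They are shown up to the first annotated exon, from 5′ to 3′ of the gene, with each CpG in capitals.
Abcc2, chr19:43782058-43782191, plus strand: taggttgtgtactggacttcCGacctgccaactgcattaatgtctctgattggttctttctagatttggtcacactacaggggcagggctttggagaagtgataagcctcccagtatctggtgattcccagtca
Abce1, chr8:79711741-79711990, minus strand: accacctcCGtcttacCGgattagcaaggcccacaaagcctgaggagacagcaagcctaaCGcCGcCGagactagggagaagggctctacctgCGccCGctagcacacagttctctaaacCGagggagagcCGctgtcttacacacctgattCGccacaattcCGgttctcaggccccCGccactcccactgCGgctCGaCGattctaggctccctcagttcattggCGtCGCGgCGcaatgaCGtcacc
The first stretch holds 1 CpG in 134 bases and the second 20 in 250. *Abcg2*, abundant in every sample, had 3 CpG in the window of its first start and 28 in that of a start further downstream. *Abcb1a*, a sparse gene, had 2 CpG in its window.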

How the data were processed

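Per the labels and the study's methods, Smart-seq2 libraries were made by the authors, who clipped adapters (Trimmomatic 0.36), mapped reads to GRCm38.p5 and counted them per gene of GENCODE M12 with STAR (2.5.3a); FastQC 0.11.5, DESeq2 1.18.1 and edgeR are also in the submitters' processing notes. The deposited values are raw counts, 1 file per mouse, and the unstranded column was used. How the wells of a mouse were joined is not given in the sources used here. Gene names and positions came from GENCODE M21, which matched 49326 of 49585 genes.

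Genotypes were compared with edgeR 4.0.16 (R 4.3.3; TMM, filterByExpr, quasi-likelihood test on all 11848 genes that passed, Benjamini-Hochberg adjustment), with thresholds of 0.05 and a log2 fold change of 1. For single genes, log2 CPM (prior count 2), and for sums their CPM, went into exact permutation tests, all two-sided. CPM used the counts of the tested genes scaled by TMM. Each sample is a separate mouse, so errors are between mice. DESeq2 1.42.0, limma 3.58.1 (voom), other filters and scalings, a replicate block and leaving out each mouse were tried as alternatives. Scripts were tested on simulated data.

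Named were *Abcc2*, *Abcg2*, *Abcb1a* and *Abca17*, the 10 members highest per exon length, members with a raw p below 0.05, with no overlap of the genotypes, or with at least 10 counts in one genotype and none in the other, the nearest paralogs of the pumps, and a few regulators. Other members were named after their values were seen, to complete their subfamily. The members and lists were chosen with earlier results of these data known. Near copies were found with minimap2 2.31 on transcripts. Protein sequences were not used here, and results of a few genes that met the rule are not reported here.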

Additional observations from a re-analysis of the deposited data

Results flagged for a closer look

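In 11 of 68 groups of 6 samples, 1 sample stood apart by Dixon's test of log2 CPM. For normally distributed values chance gives about 1 in 20. A gene counted in 1 of 6 mice gives a ratio of 1 by construction, so the number of flags cannot be set against that rate. The number beside each is the gap to the nearest sample divided by the range of the group, which is compared with 0.625. In 9 of the 11 groups the sample was the highest, mostly of a gene at 0 in the other mice of that genotype. *Abca6* in WT replicate 4 (133 counts, ratio 1), *Abca13* in Pon2-/- replicate 6 (44 counts, 1), *Abcc3* in WT replicate 3 (253 counts, 1) and in Pon2-/- replicate 5 (226 counts, 1) and *Abcd2* in WT replicate 4 (25 counts, 1) were of this kind, as was *Abcc9* in WT replicate 2 (1 count, 1) and Pon2-/- replicate 6 (12 counts, 1). *Abcb9* in Pon2-/- replicate 3 (324 counts, 0.914) and *Abcd2* in the same mouse (378 counts, 0.750) stood above a group with a few counts elsewhere. In the other two groups the sample was the lowest. *Abcc10* had 0 counts in Pon2-/- replicate 2 alone (0.822), and *Abcb8* had 5.71 CPM in WT replicate 6 (0.717). Without that WT mouse the log2 fold change of *Abcb8* was -0.11 in place of 0.12.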

How the results depend on the processing

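No ABC gene was called by edgeR under the other scaling, filters, robust estimation, limma voom, the replicate block or without any one mouse. DESeq2 called 2 members and, without its removal of outlying counts, 4. The fold change of *Abcg2* turned from 0.07 to -0.0054 under limma voom and ran from -0.11 to 0.28 without single mice. *Abcb10* turned to -0.27 under limma voom, and *Abca3* from 0.05 to -2.34 under limma voom and to -2.06 under the replicate block, while limma voom moved *Abcb1a* to -3.23 and *Abcd4* to -2.78; the causes were not tested. Leaving out single mice also turned *Abca3* (-1.16 to 0.36), *Abca2* (-0.30 to 0.033), *Abcb8* (-0.12 to 0.35), *Abcc4* (-0.12 to 0.19), *Abcd4* (-1.16 to 0.27), *Abcf1* (-0.027 to 0.17) and *Abcf2* (-0.48 to 0.017). For *Abcc2* the difference of log2 CPM ran from 3.39 to 4.89. Its p ran from 0.0152, without Pon2-/- replicate 2 or 3 (both at 0), to 0.0606. The summed ABC level differed by -74.4 to 18.5 CPM, the last without Pon2-/- replicate 1, and members without overlap numbered 0 to 1 (1 without WT replicate 5). The raw p of *Abce1* (0.0173 to 0.102) and *Abcb1a* (0.0216 to 0.0887) crossed 0.05 without single mice.

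Samples with the same replicate number deviated together by correlations of 0.00093 to 0.043, and 1 of 6 matched its own number best. These values cannot exclude a pairing. The labels do not say what a number marks, so the mice were not treated as pairs. With the replicate block all calls went from 24 to 5, and the exact paired p was 0.125 for *Abcc2* and 0.0938 for *Abce1* and *Abcb1a*.

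The fit spans a wide biological variation between mice (99.2% as edgeR's coefficient), and members counted in few mice allow intervals of several log2 units only. Counts without strand or molecular identifiers limit overlapping genes and near copies.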
